A study of Drosophila melanogaster with 6 samples.

Results

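Ecdysteroid synthesis in the larva and the brain signal that starts it are described here through 8 genes: the synthesis enzymes nvd, spok, phm, dib, sad and shd, the neuropeptide gene Ptth, and tor, which encodes the receptor of Ptth. They were taken from the 15741 entries of the expression table by their symbols, with case respected, since Phm and Tor are other genes. The RNA was that of entire Drosophila melanogaster larvae, wandering in their last instar at 25 °C, in 6 libraries that each hold a pool of more than 20 animals. The groups were wild type, Cmi depletion and Trr depletion, each at the blue gut stage, early in wandering, and at the clear gut stage, later in wandering. The depleted larvae expressed a short hairpin RNA under the GawB69B Gal4 driver, for which the labels give no pattern of expression, and the labels neither name the wild-type stock nor say whether it carried the driver. Cmi (gene Lpt) and Trr sit together in a COMPASS-like histone H3 methyltransferase, and the comparisons ask how transcripts differ when either is depleted. Each group holds 1 library, so how far like pools differ is unknown.

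Ecdysteroids are the steroid hormones that time moulting and metamorphosis in insects. In the larva the prothoracic gland, a part of the ring gland, turns dietary sterol into ecdysone through a chain of enzymes known as the Halloween genes, and other tissues turn ecdysone into the active hormone 20-hydroxyecdysone. Ptth, made by a few brain neurons that reach the gland, binds the receptor tyrosine kinase Torso there and raises ecdysone output through Ras and the MAP kinase cascade.

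The 6 libraries held 23.1 to 25.0 M reads on genes, recovered from the low RPKM values (reads per kilobase of gene and per 1e6 reads). Lpt in the libraries labelled Cmi depletion was 0.797 times the wild-type level at blue gut and 0.767 times at clear gut. The gene trr was 0.769 times wild type at clear gut but 1.23 times at blue gut in the libraries labelled Trr depletion. In those labelled Cmi depletion trr was 0.958 times wild type at clear gut and 1.53 times at blue gut. Against wild type, the blue gut library labelled Trr depletion thus does not show the depletion its label names. Single libraries of whole larvae cannot settle whether trr was depleted there. Directions drawn below from the libraries labelled Trr depletion rest on that label. Between stages the whole transcriptome moved: limma called 2777 of 11467 tested genes higher and 1275 lower at clear gut. The share of calls that were higher was 68.5% with RPKM as deposited, 48.0% after median-ratio scaling and 60% after quantile normalization. Median-ratio scaling moved the median log2 change of all tested genes at clear gut from 0.15 to -0.05, in Cmi depletion from 0.13 to 0.02 and in Trr depletion from 0.15 to -0.0044, so each change of a member below is to be read against these medians. Levels of tissue markers also differed between stages, and whether the tissue make-up did was not tested. All 4 midgut markers fell, and their summed level was 4010 to 5656 RPKM at blue gut and 452 to 802 RPKM at clear gut. Of the 4 fat body markers 1 rose and 2 fell.

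The synthesis genes spanned a wide range of levels. By RPKM, which is per length, shd was the highest of the 8 genes and tor the lowest in each of the 6 libraries. Between them stood spok, phm and sad at 6.55 to 33.6 RPKM, and below those nvd, dib and Ptth at 1.43 to 5.80 RPKM. Within the upper trio some neighbours could not be ordered beyond counting error. At blue gut phm and sad differed by a ratio of 1.06 in wild type (95% counting interval 0.965 to 1.16), 1.01 in Cmi-depleted larvae (sad over phm, 0.897 to 1.14) and 1.04 in Trr depletion (0.925 to 1.17). The clear gut libraries had sad above both spok and phm in all 3 genotypes. In wild type the lower trio ran from nvd through dib to Ptth at both stages, each step beyond counting error. In the depleted larvae neither step inside the lower trio was beyond counting error at either stage.

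**Figure D1:**
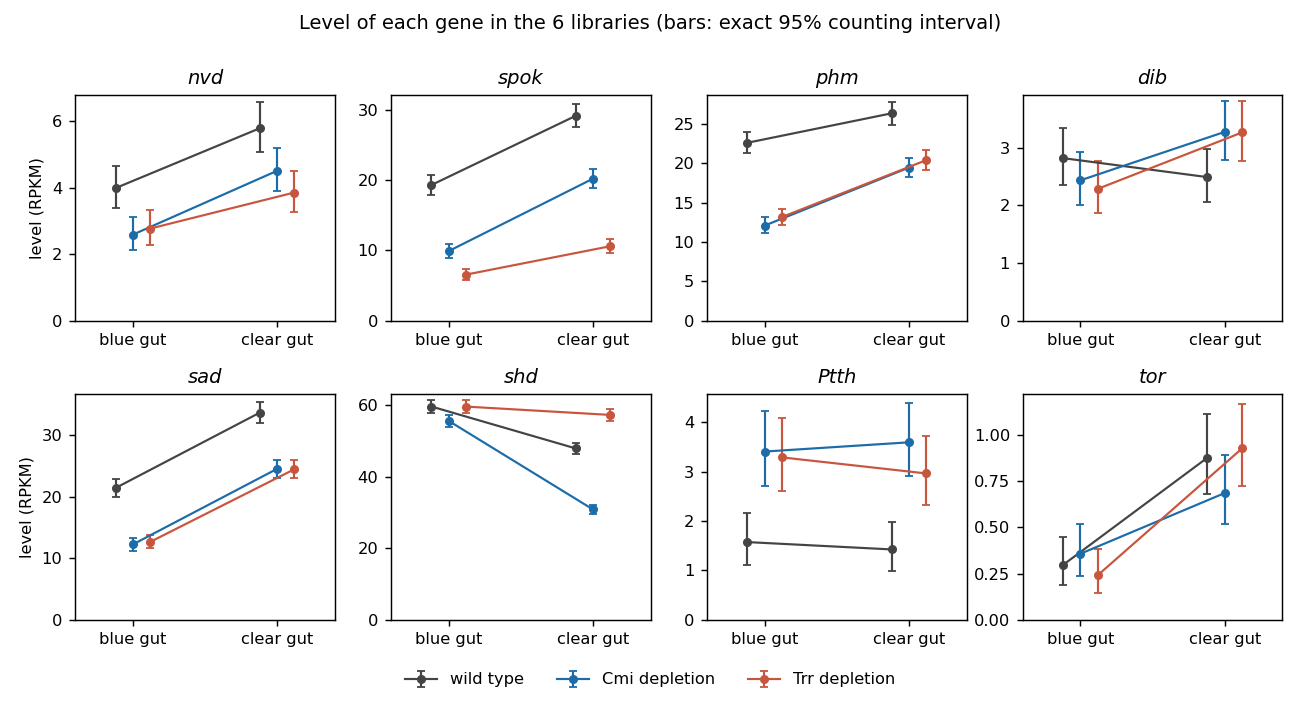
Level in RPKM of each gene (1 panel per gene, linear axes from 0) in the 6 libraries, with blue gut at left and clear gut at right and 1 colour per genotype. Points are single libraries and bars are exact 95% counting intervals. The genes sad and tor are higher in all 3 clear gut libraries than in any blue gut library, as are 38.5% of all tested genes. Ptth is higher in the 4 libraries of depleted larvae than in wild type, a pattern not counted over all genes.

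The signal comes first. Ptth lies on chromosome 2L, minus strand, at 575711 to 576896 of dm6, and encodes the prothoracicotropic hormone. Its level was 1.58 RPKM (38 reads) in wild type at blue gut and 1.43 RPKM (36 reads) at clear gut. In Cmi depletion it was 3.41 RPKM (84 reads) and 3.60 RPKM (94 reads), and in Trr depletion 3.29 RPKM (80 reads) and 2.97 RPKM (74 reads). The 4 libraries of depleted larvae were thus all above the 2 of wild type, with no overlap. How many of all tested genes have this pattern was not counted.

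Relative to wild type, Ptth in Cmi depletion was 2.16 times as high at blue gut (95% counting interval 1.46 to 3.26) and 2.52 times at clear gut (1.70 to 3.81). The libraries labelled Trr depletion had ratios of 2.09 at blue gut (1.4 to 3.16) and 2.08 at clear gut (1.38 to 3.19). Ptth was the sole tested gene of the 8 that stood at least 1.5-fold above wild type at both stages in Cmi depletion, where 2.21% of all tested genes did, and likewise in Trr depletion, where 3.6% did. In the limma fit its log2 change was 0.85 (SE 0.17, adjusted p = 0.342) in Cmi depletion and 0.72 (SE 0.17, adjusted p = 0.557) in Trr depletion, neither past the threshold of 0.05. Both comparisons use the same wild-type libraries. The 2 depletions did not differ beyond counting error, with Trr over Cmi at 0.965 (0.702 to 1.33) at blue gut and 0.825 (0.600 to 1.13) at clear gut. In whole larvae, a change in the number of cells of a type and a change in RNA per cell cannot be told apart.

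Markers of other brain cells were read beside Ptth. Of 5 neuronal markers none was at 0, and limma called 2 of the 4 tested higher at clear gut, beside 24.2% of all tested genes. The summed level of the 5 was 31.6 to 33.0 RPKM over the 3 blue gut libraries and 45.1 to 45.5 RPKM over the 3 clear gut libraries. Most of that sum is Syt1, which at blue gut read 24.2 RPKM in wild type, 17.8 RPKM with Cmi depleted and 18.8 RPKM with Trr depleted. The other 4 were higher in both depleted blue gut libraries than in wild type, as Ptth was: elav read 3.43 RPKM in wild type against 6.11 and 5.06 RPKM, nSyb 4.58 against 7.01 and 6.0 RPKM, brp 0.791 against 1.96 and 1.66 RPKM, and para 0.011 against 0.126 and 0.09 RPKM. At clear gut brp alone of the 5 was higher in both depletions, at 3.05 and 2.73 RPKM against 2.55 RPKM. None of the 4 tested was called between genotypes, where limma called at most 0.0872% of all tested genes in any comparison and direction. The part of these markers in the Ptth values was not tested. Of the 3 genes of the brain insulin neurons, whose summed level was 25.2 and 15 RPKM in wild type, 15.6 and 9.91 RPKM in Cmi-depleted larvae and 14.3 and 12.6 RPKM in Trr depletion, none was called between genotypes. Over both stages Ilp2 and Ilp5 were lower in the depleted larvae (limma log2 -1.21 and -0.60 with Cmi depleted, -0.94 and -0.65 with Trr depleted), and Ilp3 was at 0.22 and 0.19. Ptth shares 24 of its 1128 exonic bases with the gene cold on the opposite strand, which stood at 3.20 to 5.49 RPKM. For Ptth the clear gut over blue gut ratio was 0.905 in wild type, 1.05 in Cmi-depleted larvae and 0.901 in Trr depletion, each with an interval that includes 1 (limma log2 change -0.05, SE 0.14, adjusted p = 0.844).

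The receptor gene tor lies on chromosome 2R, minus strand, at 7705183 to 7709184. It encodes Torso, a receptor tyrosine kinase used by the early embryo at its poles and by the prothoracic gland of the larva. Its level was 0.297 RPKM (22 reads) at blue gut and 0.876 RPKM (68 reads) at clear gut in wild type. It was 0.357 RPKM (27 reads) and 0.685 RPKM (55 reads) in Cmi depletion, and 0.241 RPKM (18 reads) and 0.926 RPKM (71 reads) in Trr depletion. Every clear gut library lay above every blue gut library, a pattern held by 38.5% of all tested genes, which do not include tor.

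The stage ratio of tor was 2.95 in wild type (95% counting interval 1.80 to 5.02), 1.92 in Cmi-depleted larvae (1.19 to 3.17) and 3.84 in Trr depletion (2.27 to 6.85). With a mean of 0.564 RPKM tor did not pass the filter of 1 RPKM, so 7 of the 8 genes were tested. In a fit of all entries with no filter, limma gave tor a log2 change of 0.49 at clear gut (SE 0.092, adjusted p = 0.0364). That fit called 15.8% of all entries higher. Its ratios to wild type all had intervals that include 1, from 0.782 at clear gut to 1.2 at blue gut, both in Cmi depletion.

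The first enzyme of the chain is Neverland, a Rieske oxygenase that acts on cholesterol. Its gene nvd runs over 76790 bases of chromosome 3L, plus strand, at 24324866 to 24401655, of which 1722 bases are exonic. It measured 3.99 RPKM at blue gut and 5.80 RPKM at clear gut in wild type, 2.59 and 4.51 RPKM in Cmi-depleted larvae, and 2.77 and 3.86 RPKM in Trr depletion. Wild type was the highest genotype at each stage, while the stages overlapped.

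Relative to wild type nvd stood at 0.649 (95% counting interval 0.503 to 0.834) at blue gut and 0.779 (0.642 to 0.944) at clear gut in Cmi depletion. The corresponding values in Trr depletion were 0.695 (0.541 to 0.890) and 0.666 (0.542 to 0.817). In the limma fit nvd had log2 changes of -0.39 (SE 0.17, adjusted p = 0.672) and -0.44 (SE 0.17, adjusted p = 0.633), and a stage change of 0.48 (SE 0.14, adjusted p = 0.056).

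Spookier, a cytochrome P450 of the step known as the black box, is encoded by spok on chromosome 3R, plus strand, at 3322810 to 3354486, a span of 31677 bases with 1767 exonic. In wild type it read 19.3 RPKM (754 reads) at blue gut and 29.1 RPKM (1191 reads) at clear gut. Cmi depletion gave 9.89 RPKM (395 reads) and 20.2 RPKM (855 reads), and Trr depletion 6.55 RPKM (258 reads) and 10.6 RPKM (428 reads). At each stage the genotypes stood in the order wild type, Cmi depletion, Trr depletion.

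Of the 7 tested genes spok had the lowest ratio to wild type in Trr depletion at both stages. The ratio was 0.340 at blue gut (95% counting interval 0.294 to 0.392) and 0.364 at clear gut (0.325 to 0.406), against 0.513 (0.453 to 0.580) and 0.693 (0.634 to 0.758) in Cmi depletion. It also lay below Cmi depletion in the libraries labelled Trr depletion, at 0.662 (0.564 to 0.776) and 0.524 (0.466 to 0.590). The limma log2 change was -1.4 (SE 0.17, adjusted p = 0.185) for Trr depletion, -0.70 (SE 0.17, adjusted p = 0.462) for Cmi depletion and -0.70 (SE 0.17, adjusted p = 0.877) between the depletions. Without either Cmi library the log2 change of spok in Trr depletion was unchanged at -1.40, yet it passed the threshold. In those fits the prior degrees of freedom, shared by the whole table, went from 2.75 to 7.69 (blue gut left out) or 7.72 (clear gut left out). The part of this shift in the call was not tested. Over all the alternatives the log2 change ranged from -1.57 to -1.29.

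At clear gut spok rose in the limma fit by 0.72 on the log2 scale (SE 0.14, adjusted p = 0.0200). The stage ratio was 1.51 in wild type (1.38 to 1.66), 2.04 in Cmi-depleted larvae (1.81 to 2.30) and 1.62 in Trr depletion (1.38 to 1.89).

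The next enzyme, Phantom, is a P450 that hydroxylates the side chain. Its gene phm, named phtm in RefSeq, lies on chromosome X, plus strand, at 18685766 to 18688433. It read 22.6 RPKM at blue gut and 26.3 RPKM at clear gut in wild type, 12.1 and 19.4 RPKM in Cmi-depleted larvae, and 13.2 and 20.4 RPKM in Trr depletion. The depleted libraries lay close together at each stage and below wild type.

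For phm the ratio to wild type was 0.534 (95% counting interval 0.482 to 0.592) and 0.738 (0.679 to 0.803) in Cmi depletion, and 0.582 (0.526 to 0.644) and 0.774 (0.712 to 0.842) in Trr depletion, at blue gut and clear gut. The limma log2 change was -0.64 (SE 0.17, adjusted p = 0.526) and -0.55 (SE 0.17, adjusted p = 0.633). With stage it was 0.48 (SE 0.14, adjusted p = 0.0541).

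Disembodied, encoded by dib on chromosome 3L, plus strand, at 4062292 to 4064551, is the P450 of the following side-chain hydroxylation. It was the synthesis enzyme gene with the narrowest range, 2.28 to 3.27 RPKM. Wild type read 2.82 RPKM at blue gut and 2.49 RPKM at clear gut, Cmi depletion 2.43 and 3.27 RPKM, and Trr depletion 2.28 and 3.26 RPKM. The wild-type library was thus the highest at blue gut and the lowest at clear gut.

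The ratio of dib to wild type was 0.864 (0.667 to 1.12) at blue gut and 1.32 (1.03 to 1.68) at clear gut in Cmi depletion, and 0.811 (0.623 to 1.05) and 1.31 (1.03 to 1.68) in Trr depletion. No log2 change of dib passed the test, with 0.07 (adjusted p = 0.893) in Cmi depletion, 0.04 (adjusted p = 0.944) in Trr depletion and 0.19 (adjusted p = 0.453) between stages, and both depletion values turned below 0 under median-ratio scaling and under quantile normalization. Its 1975 exonic bases share 400 with the gene wit on the opposite strand, the counting is not stated to use strand, and in 5 of 6 libraries its value was off a whole number of reads (by more than 0.1 read). The level of wit was 7.60 and 10.01 RPKM in wild type, 12.8 and 10.2 RPKM in Cmi-depleted larvae and 12.6 and 9.38 RPKM in Trr depletion. The part of wit in the values of dib was not tested.

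Shadow is the mitochondrial P450 that completes ecdysone. Its gene sad lies on chromosome 3R, plus strand, at 11877235 to 11879754. In wild type it read 21.4 RPKM (875 reads) at blue gut and 33.6 RPKM (1439 reads) at clear gut. It read 12.2 RPKM (511 reads) and 24.5 RPKM (1086 reads) in Cmi depletion, and 12.6 RPKM (521 reads) and 24.4 RPKM (1034 reads) in Trr depletion. The clear gut libraries all lay above the blue gut libraries, as for 38.5% of all tested genes.

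At clear gut sad rose, with a log2 change of 0.83 in limma (SE 0.13, adjusted p = 0.0121) and stage ratios of 1.57 in wild type (95% counting interval 1.44 to 1.71), 2.0 in Cmi-depleted larvae (1.80 to 2.23) and 1.93 in Trr depletion (1.74 to 2.15). Relative to wild type it was 0.572 (0.512 to 0.638) and 0.729 (0.673 to 0.789) in Cmi depletion and 0.591 (0.529 to 0.659) and 0.727 (0.670 to 0.788) in Trr depletion. The limma log2 change was -0.60 (SE 0.15, adjusted p = 0.498) and -0.58 (SE 0.15, adjusted p = 0.614). Between the depletions sad was at 1.03 (0.913 to 1.17) and 0.997 (0.915 to 1.09). It shares 53 exonic bases with CG6962 on the opposite strand, which stood at 4.43 to 6.86 RPKM.

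Shade acts outside the gland, in tissues such as fat body, gut and Malpighian tubules, where it turns ecdysone into 20-hydroxyecdysone. Its gene shd lies on chromosome 3L, plus strand, at 14614458 to 14622205. It read 59.6 RPKM at blue gut and 47.9 RPKM at clear gut in wild type, 55.6 and 30.8 RPKM in Cmi-depleted larvae, and 59.6 and 57.3 RPKM in Trr depletion. The 3 blue gut libraries lay close together, and at clear gut the Cmi depletion library stood apart below the rest.

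Relative to wild type shd in Cmi depletion was 0.933 (95% counting interval 0.892 to 0.975) at blue gut and 0.644 (0.611 to 0.679) at clear gut, while the values in Trr depletion were 1.00 (0.957 to 1.04) and 1.2 (1.14 to 1.25). At clear gut Trr depletion was 1.86 times Cmi depletion (1.76 to 1.95). No limma change of shd passed the threshold, with -0.40 for stage (SE 0.18, adjusted p = 0.153), -0.36 for Cmi depletion (SE 0.22, adjusted p = 0.672) and 0.13 for Trr depletion (SE 0.22, adjusted p = 0.818). The same library had the lowest sum of the 4 midgut markers (452 RPKM, against 683 in wild type and 802 in Trr depletion at clear gut) and of the 3 Malpighian tubule markers (13.0 RPKM, against 15.8 and 30.3). The sum of the 4 fat body markers in it was the highest at clear gut (34088 RPKM, against 27847 in wild type and 33363 in Trr depletion). Their part in the shd value was not tested.

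**Figure D2:**
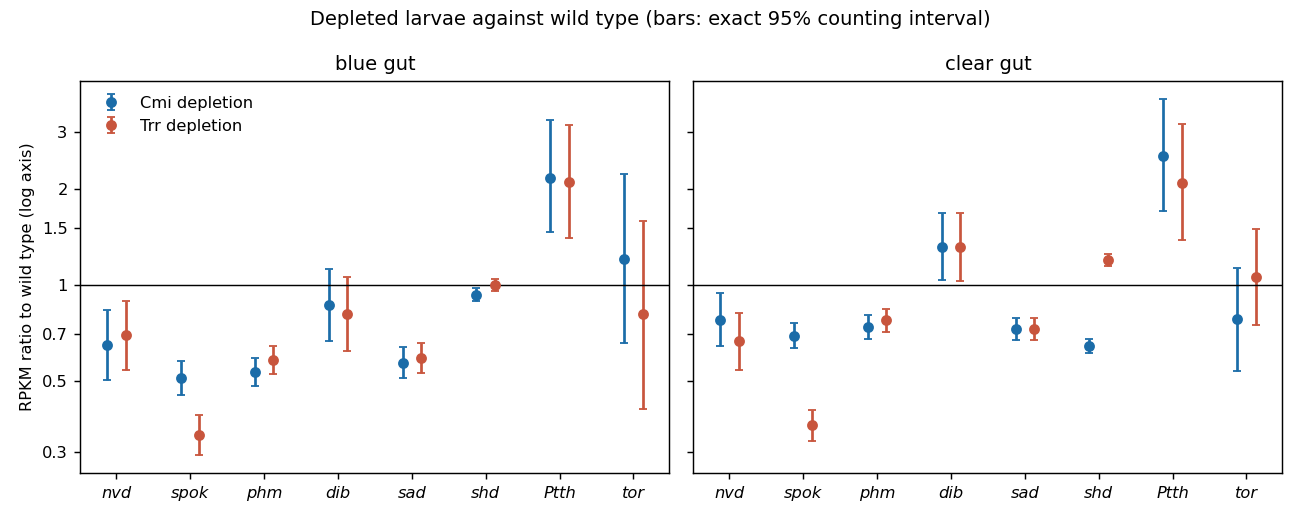
Ratio of RPKM to wild type on a log axis for each gene, at blue gut (left) and clear gut (right), with Cmi depletion and Trr depletion in separate colours. Bars are exact 95% counting intervals from single libraries; nvd, spok, phm and sad lie below 1 and Ptth above 1 in every panel and colour, and spok is lowest in Trr depletion.

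Depletion was compared with wild type across the whole set. The 4 gland genes nvd, spok, phm and sad had ratios below 1 with intervals below 1 in both depletions at both stages, 0.340 to 0.779. The gene dib did not, and Ptth lay above 1 throughout. These intervals cover counting error only, and how many of all tested genes have such intervals was not counted. No member was called by limma in Cmi depletion, where 0.0872% of all tested genes were called higher and 0.0174% lower, or in Trr depletion, where 0.0523% were called higher and 0% lower, or between the depletions, where no gene was called in either direction. At an unadjusted p under 0.05 the fit held 4 of the 7 tested members in Cmi depletion and 4 in Trr depletion. Beside them stood 781 and 789 of the 11467 tested genes. Between the depletions it held 1 member, beside 492 of the tested genes. The median log2 change of the 7 members was -0.39 in Cmi-depleted larvae, -0.44 in Trr depletion and -0.03 between them, and that of all tested genes 0.13, 0.15 and 0.03. The residual of this fit holds the spread between pools together with how far a genotype's effect differs between stages, and these cannot be told apart.

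The rule of a 1.5-fold difference at both stages gave no member below wild type in Cmi depletion, where 3.44% of tested genes were, and spok alone in Trr depletion, where 2.06% were. Median-ratio scaling, tried for this rule after seeing the data, gave phm, sad and spok in Cmi depletion (background 4.18%) and nvd, sad and spok in Trr depletion (background 3.32%). Ptth stayed the member above wild type in both (backgrounds 1.5% and 1.79%). Between the depletions spok was the member at least 1.5-fold lower in the libraries labelled Trr depletion (0.863% of all tested genes), also after scaling (1.19%), and none was at least 1.5-fold higher, where 1.98% were (1.71% after scaling).

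The shape of the set within a library set spok apart in the libraries labelled Trr depletion. Relative to phm of the same library, spok stood at 0.853 and 1.11 in wild type and 0.819 and 1.04 in Cmi-depleted larvae, at blue gut and clear gut. It stood at 0.497 (95% counting interval 0.429 to 0.576) and 0.519 (0.462 to 0.582) in Trr depletion. The sad to phm ratio was higher at clear gut in every genotype, going from 0.946 to 1.28 in wild type, from 1.01 to 1.26 with Cmi depleted and from 0.960 to 1.2 with Trr depleted. The nvd to phm ratio stayed between 0.177 and 0.232 in all 6 libraries. The dib to phm ratio was 0.125 and 0.0944 in wild type, 0.201 and 0.168 in Cmi-depleted larvae and 0.174 and 0.160 in Trr depletion, so wild type was lowest at each stage.

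**Figure D3:**
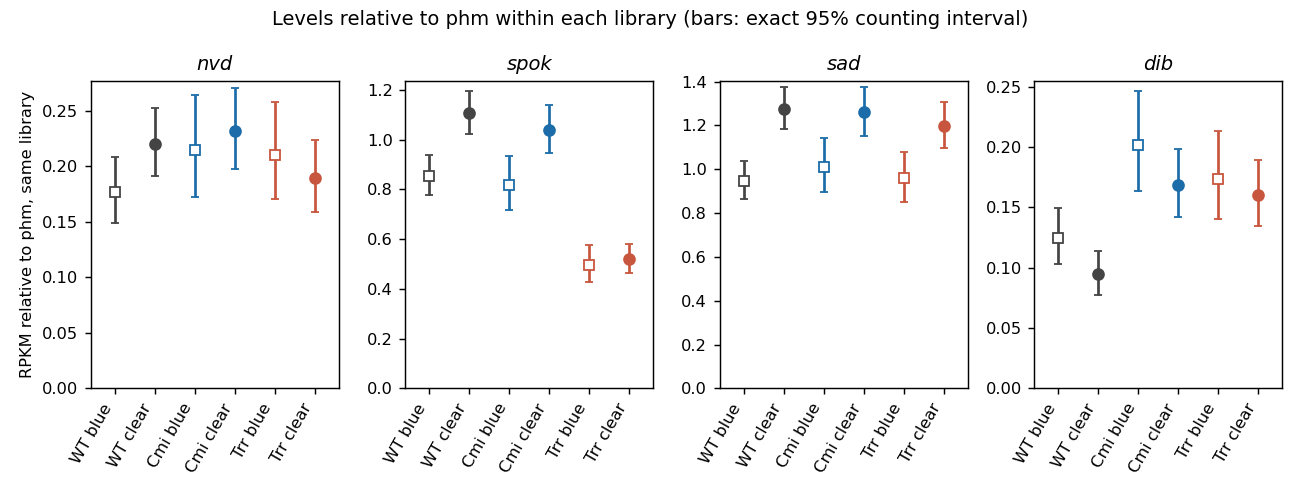
RPKM of the gland genes divided by RPKM of phm in the same library, with 1 panel per gene and the 6 libraries along each horizontal axis. Bars are exact 95% counting intervals; spok reads 0.497 and 0.519 in the libraries labelled Trr depletion and 0.819 to 1.11 in the other 4.

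Summed over nvd, spok, phm, dib and sad, the 5 gland genes reached 70.1 RPKM at blue gut and 97.3 RPKM at clear gut in wild type, 39.2 and 71.9 RPKM in Cmi-depleted larvae, and 37.4 and 62.5 RPKM in Trr depletion. A further enzyme gene of the gland, sro, which encodes a short-chain dehydrogenase, had a mixed pattern, at 25.3 and 32.9 RPKM in wild type, 18.2 and 18.9 RPKM in Cmi-depleted larvae and 14.9 and 30.7 RPKM in Trr depletion. The zinc finger gene ouib, whose product is known to act on spok, stood at 1.43 and 1.83 RPKM in wild type, 0.70 and 1.32 RPKM in Cmi-depleted larvae and 0.56 and 0.582 RPKM in Trr depletion, from 15 to 51 reads. Start1, the other listed gland marker, stood the other way at blue gut, with 26.2 RPKM in wild type, 30.3 RPKM with Cmi depleted and 28.1 RPKM with Trr depleted, and at 45.3, 52.9 and 43.5 RPKM at clear gut. Akh, the hormone gene of the corpora cardiaca in the same ring gland, stood at 8.73 and 8.42 RPKM in wild type, 8.94 and 7.31 RPKM in Cmi-depleted larvae and 5.86 and 7.19 RPKM in Trr depletion, and was not called in any comparison.

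Clear gut was then compared with blue gut. Of the 7 tested members, spok and sad rose (2 of 7, where 24.2% of all tested genes were called higher) and none fell (11.1% of all tested genes were called lower). The members' median log2 change was 0.48, beside 0.15 for all genes. In limma 4 of the 7 members, beside 5381 of the 11467 tested genes, had an unadjusted p under 0.05. After median-ratio scaling sad stood at 0.61 (adjusted p = 0.0279) and spok at 0.50 (adjusted p = 0.0437). Without either wild-type library or either Trr library neither gene was called, with adjusted p of 0.0509 to 0.0645 for sad and 0.0630 to 0.0857 for spok, and leaving out a wild-type library left no called gene in the whole table. Of the 7 tested members sad alone had all 3 clear gut libraries above all 3 blue gut libraries, a pattern held by 38.5% of all tested genes, and none had the reverse, held by 14%.

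**Figure D4:**
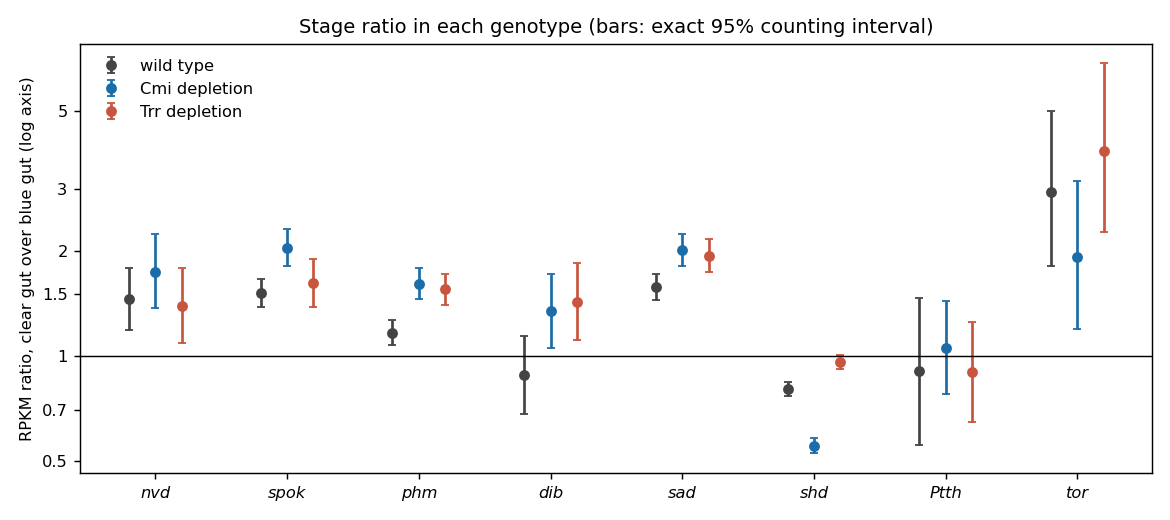
Ratio of RPKM at clear gut to RPKM at blue gut on a log axis for each gene in wild type, Cmi depletion and Trr depletion. Bars are exact 95% counting intervals. The genes nvd, spok, phm, sad and tor lie above 1 in all 3 genotypes. The ratio of shd lies below 1 in all 3, though in Trr depletion its interval includes 1 (0.961, 0.920 to 1.004). For dib the ratio is 0.883 in wild type, with an interval that includes 1, and 1.34 and 1.43 in the depleted larvae.

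The stage ratios differed between genotypes beyond counting error for some members. For phm the stage ratio was 1.17 in wild type (95% counting interval 1.07 to 1.27), 1.61 in Cmi-depleted larvae (1.45 to 1.79) and 1.55 in Trr depletion (1.4 to 1.72), so that the depleted ratios were 1.38 times (1.21 to 1.58) and 1.33 times (1.17 to 1.52) that of wild type. For sad the depleted ratios were 1.27 times (1.11 to 1.46) and 1.23 times (1.07 to 1.41) that of wild type. The first of these was 1.13 (0.984 to 1.29) after median-ratio scaling. For spok the factor was 1.35 (1.16 to 1.58) in Cmi depletion and 1.07 (0.891 to 1.29) in Trr depletion. For nvd it was 1.2 (0.871 to 1.66) and 0.959 (0.693 to 1.33), and for tor 0.651 (0.316 to 1.33) and 1.30 (0.605 to 2.82), intervals that include 1. For shd it was 0.690 (0.644 to 0.740) in Cmi depletion and 1.2 (1.12 to 1.27) in Trr depletion. These intervals cover counting error in 4 libraries and no spread between pools, so the differences have no replicate check.

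The rest of the pathway was described from lists. Among 11 tested genes of synthesis and sterol supply, 3 rose at clear gut and none fell, beside 24.2% and 11.1% of all tested genes, with a list median of 0.11. They were Npc1a, an intracellular sterol transporter (log2 change 0.79, SE 0.18, adjusted p = 0.0280), ecd, named for the ecdysone-deficient mutant (0.75, adjusted p = 0.0163), and Start1, which has a sterol-binding START domain (0.72, adjusted p = 0.0123). The relative of spok that acts in the embryo, spo, was at 0.059 RPKM or less. Outside the members, 65 genes with a Cyp symbol were tested, a family counted after its values were seen: 5 rose and 40 fell at clear gut, with a median of -1.17.

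Of 9 tested transcription factors of the gland, 4 rose and 1 fell, beside 24.2% and 11.1% of all tested genes, with a median of 0.49. The nuclear receptor gene Hr4 read 0.097, 0.321 and 0.175 RPKM at blue gut and 25.8, 18.8 and 17.1 RPKM at clear gut in wild type, Cmi depletion and Trr depletion, a log2 change of 4.15 (SE 0.20, adjusted p = 0.0026). The others that rose were the nuclear receptor gene kni (1.11, adjusted p = 0.0077), the zinc finger gene mld (1.10, adjusted p = 0.0216), known to act on nvd and spok, and the POU domain gene vvl (0.86, adjusted p = 0.0216). The nuclear receptor gene ftz-f1 fell (-0.61, adjusted p = 0.0451), a call lost without the filter on low values and whenever 1 library was left out. A further listed gene, usp, was not analysed here.

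Of 15 tested genes of the Torso and Ras-MAPK pathway, 9 rose and none fell, beside 24.2% and 11.1% of all tested genes, with a median of 0.56. The ETS repressor gene aop, which MAP kinase is known to inactivate, had the largest change among the called genes (2.43, SE 0.25, adjusted p = 0.0055). It was followed by the phosphatase gene csw (1.05, adjusted p = 0.0110), the adaptor gene dos (0.91, adjusted p = 0.0188) and the Ras regulator gene Gap1 (0.90, adjusted p = 0.0273). The kinase gene rl, which encodes the MAP kinase itself, stood at 0.53 (adjusted p = 0.0305). The count of genes that rose was 3 after median-ratio scaling, where 11.7% of all tested genes rose, and 5 after quantile normalization, where 18.5% did.

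Of 5 genes that release, take up or break down ecdysteroids, 2 rose and 1 fell, beside 24.2% and 11.1% of all tested genes. The transporter gene E23 rose by 2.68 (SE 0.21, adjusted p = 0.0035), from 7.93 to 12.6 RPKM at blue gut to 59.4 to 75.8 RPKM at clear gut. Atet, a transporter of the same superfamily known to load ecdysone into gland vesicles, rose by 2.0 (SE 0.20, adjusted p = 0.0053), from 12.3 to 18.2 RPKM to 47.2 to 95.1 RPKM. The ecdysone oxidase gene Eo fell (-1.15, SE 0.23, adjusted p = 0.0207).

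Of 16 tested genes of signals that act on the Ptth neurons or the gland, 7 rose and 1 fell, beside 24.2% and 11.1% of all tested genes, with a median of 0.66. The largest changes among the called genes that rose were the insulin receptor gene InR (1.15, SE 0.23, adjusted p = 0.0222), spi, an EGF receptor ligand (1.08, adjusted p = 0.0091), the receptor kinase gene Alk (1.02, adjusted p = 0.0281) and Egfr (0.86, adjusted p = 0.0203). The neuropeptide gene AstA fell (-0.70, adjusted p = 0.0227). After median-ratio scaling 2 of the 16 rose, near the 11.7% of all tested genes. In the depletion comparisons limma called no gene of any of the 5 lists. At an unadjusted p under 0.05 no list held more than 2 genes in any of these comparisons.

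**Figure D5:**
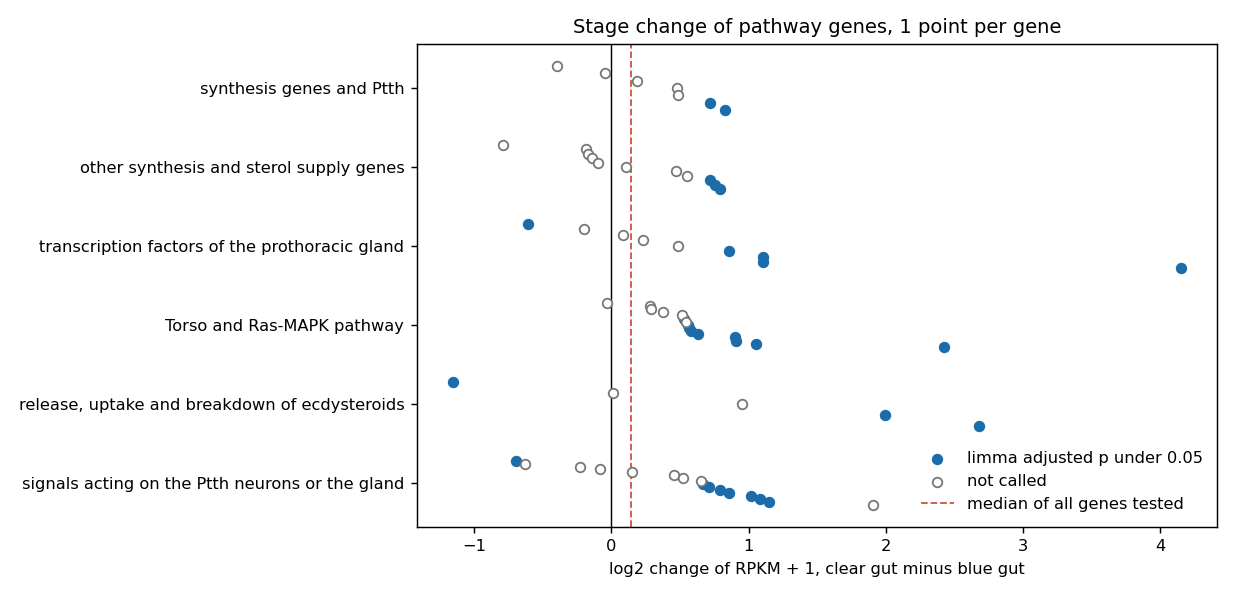
Stage change on the log2(RPKM + 1) scale, clear gut minus blue gut, with 1 point per tested gene in each list. The dashed line is the median of all tested genes at 0.15; Hr4 at 4.15, E23 at 2.68 and aop at 2.43 lie farthest to the right.

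The genes whose profile over the 6 libraries was most like that of each tested member were found by the root mean square difference of centred log2(RPKM + 1) values. The nearest gene was ventrally-expressed-protein-D for nvd (0.043), LysX for spok (0.22), nAcRbeta-21C for phm (0.091), CG17343 for dib (0.035), Karl for sad (0.074), fusl for shd (0.078) and CG12347 for Ptth (0.10). Next in likeness were CG32640 and Him for nvd, Ugt86Di and Tep1 for spok, CG4586 and CG32641 for phm, MED4 and CG15073 for dib, CG6770 and CG4386 for sad, Tep3 and CG4199 for shd, and CG4686 and VhaM9.7-d for Ptth. No member was among the nearest 3 of another member. All profiles share the same 6 libraries.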

How the data were processed

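RNA was selected with oligo dT and sequenced on an Illumina HiSeq instrument, and reads were aligned with SOAPaligner/SOAP2, per the labels' protocols. Bowtie and the build dm6 stand in the submitters' processing notes. Of the counting tool and the annotation, the sources used here give no name. In the deposited table are RPKM values, scaled by the authors for gene length and depth, beside a gene length in bases, and it has 0 columns of other samples. A dash was read as 0. Reads were recovered as the depth that put 82.8% to 84.7% of each library's judged values at whole reads (tolerance 0.1). At the doubled depth, 46.2 to 50.0 M, 99.96% to 100% of judged values were whole. The reads and counting intervals given here use the single depth. A count model was not run, since at that single depth the rest of the values were not whole. Ratios between libraries carry exact (Clopper-Pearson) 95% intervals, and ratios of stage ratios exact conditional intervals, for counting error only. A floor of 3 reads is 0.0777 to 0.0842 RPKM at the median length of 1543 bases.

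The test was limma 3.58.1 (R 4.3.3, statmod 1.5.0, eBayes with trend and robust) on log2(RPKM + 1), which understates changes of low genes, over 11467 genes whose mean was 1 RPKM or more. Genotype and stage were additive, leaving 2 residual degrees of freedom (prior 2.75, median residual SD 0.18). P-values are two-sided, adjusted by Benjamini-Hochberg across every tested gene, and called at 0.05. "Rose" and "fell" are kept for called genes, and within a stage there is no p-value. The fit was tested on simulated data, and 13 alternatives were run.

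The text names all 8 members. From each list it names at most the 4 genes with the largest change among those called between stages, besides rl and the genes given as levels, which were chosen after their values were seen, and for each tested member the 3 genes nearest in profile. The members and lists were chosen with earlier results of these data known. Coordinates are from the Ensembl annotation of dm6, and RefSeq held 13253 of the 15741 gene identifiers. Scripts used Python 3.11.15 with SciPy 1.17.1.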

Additional observations from a re-analysis of the deposited data

Results flagged for a closer look

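The direction of the stage ratio (clear gut over blue gut) differed between genotypes for dib and Ptth, each with 1 library per group, and the difference was not tested against replicates. The stage ratio of dib was 0.883 in wild type (95% counting interval 0.684 to 1.14, which includes 1). It was 1.34 under Cmi depletion (1.05 to 1.72) and 1.43 in the libraries labelled Trr depletion (1.11 to 1.84). With median-ratio scaling the stage ratio was 0.784, 1.06 and 1.28 in the same order. Cmi depletion stood at 1.52 times the wild-type stage ratio (95% counting interval 1.07 to 2.18) and Trr depletion at 1.62 times (1.12 to 2.32). After median-ratio scaling these were 1.35 (0.946 to 1.93), which includes 1, and 1.63 (1.13 to 2.33), and dib shares exonic bases with wit. The stage ratio of Ptth was 0.905 in wild type, 1.05 in Cmi depletion and 0.901 in Trr depletion. Cmi depletion stood at 1.17 times wild type (0.653 to 2.08), and Trr depletion at 0.854 times Cmi depletion (0.542 to 1.35), both intervals that include 1. After the same scaling the Ptth stage ratio was 0.829 in Cmi depletion, beside 0.804 in wild type and 0.805 in Trr depletion, so that the 3 genotypes then had the same direction.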

How the results depend on the processing

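No paired analysis was possible because each group has 1 library, so the groups share fewer than 2 replicate numbers, and genotype is already a term of the stage comparison. Over all alternatives of the members' log2 changes, 314 values had the same direction and side of the threshold, 3 passed it newly, 10 no longer passed it and 19 changed sign. Of the 7 members 2 were called between stages, 0 without both Trr libraries (sad adjusted p = 0.0502, spok 0.0604 in limma), and 0 to 2 with 1 library left out. In Trr depletion spok passed the threshold only when a Cmi library was left out, with its log2 change unchanged at -1.40. The fold rule at both stages gave 3 members lower under median-ratio scaling in Cmi depletion, against 0, and 3 in Trr depletion, against 1. With plain eBayes nvd was also called between stages (adjusted p = 0.0448). Median-ratio scaling, tried for the ratios of stage ratios after seeing the data, moved the Trr over Cmi interval of spok across 1 (from 0.792 to 0.901, 0.738 to 1.10) and that of tor off 1 (from 2.0 to 2.28, 1.08 to 4.86).

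Of the list counts between stages, the Torso and Ras-MAPK genes that rose numbered 9, and 3 under median-ratio scaling, 5 under quantile normalization, 4 without both Trr libraries and 0 to 7 with 1 library left out. The signal genes that rose numbered 7, and 2 under median-ratio scaling, 3 without both Trr libraries and 0 to 10 with 1 left out, while the 1 that fell became 0 without both Trr libraries and 0 to 1 with 1 left out. The gland transcription factor that fell became 0 without the filter, 0 without both Trr libraries and 0 to 0 with 1 left out, and those that rose ranged over 0 to 4. Synthesis and sterol supply genes that rose ranged over 0 to 4, and the release, uptake and breakdown genes over 0 to 3 that rose and 0 to 1 that fell. Each 0 among the genes that rose came from leaving out a wild-type library, which left 1 residual degree of freedom and no called gene in the table.

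The changes of sign were in log2 changes that no setting called. For dib in Cmi depletion the value was -0.027 under median-ratio scaling, -0.033 under quantile normalization and -0.17 to 0.31 with 1 library left out, and in Trr depletion -0.10, -0.16 and -0.20 to 0.27. For shd in Trr depletion it was -0.048 under median-ratio scaling and -0.13 to 0.38 with 1 left out. Between the depletions sad was at -0.026 under median-ratio scaling and -0.029 under quantile normalization, and leaving out 1 library gave -0.071 to 0.11 for sad, -0.16 to 0.052 for nvd, -0.030 to 0.21 for phm and -0.17 to 0.11 for dib. The cause of these shifts was not tested. Depth limits tor, at 18 to 71 reads, and Ptth, at 36 to 94 reads.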

Other observations

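Some listed genes stood apart in single groups, picked out here after their values were seen and without a call by limma between genotypes. Ilp8, a relaxin-like peptide that delays metamorphosis when discs are damaged, read 0.585 and 2.19 RPKM in wild type, 0.764 and 28.6 RPKM in Cmi depletion and 0.533 and 1.42 RPKM in Trr depletion, at blue gut and clear gut. At clear gut Cmi depletion was 13.0 times wild type (95% counting interval 9.69 to 17.9). Cyp18a1, which inactivates 20-hydroxyecdysone, read 3.67 and 13.1 RPKM in wild type, 4.58 and 3.05 RPKM in Cmi depletion and 1.72 and 7.96 RPKM in Trr depletion, so that Cmi depletion at clear gut was 0.233 times wild type (0.200 to 0.271). The ecdysone oxidase gene Eo read 25.6 and 12.8 RPKM in wild type, 12.6 and 3.05 RPKM in Cmi depletion and 19.6 and 11.0 RPKM in Trr depletion.

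Cyp6t3, a P450 gene linked to ecdysone synthesis, read 0.511 and 0.538 RPKM in wild type, 0.476 and 0.26 RPKM in Cmi depletion and 2.11 and 3.49 RPKM in the libraries labelled Trr depletion, which were 4.12 times (2.50 to 7.09) and 6.48 times (4.12 to 10.7) wild type. Npc1b, a sterol absorption gene of the midgut, read 2.99 and 4.06 RPKM in wild type, 13.1 and 3.31 RPKM in Cmi depletion and 17.1 and 7.99 RPKM in Trr depletion. At blue gut its ratio to wild type was 4.38 (3.83 to 5.03) in Cmi depletion and 5.70 (5.0 to 6.53) in Trr depletion.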
